A study of Mus musculus with 12 samples.

Results

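The matrix metalloproteinases (Mmp), the ADAMTS proteases (Adamts), the ADAMTS-like proteins (Adamtsl) and the tissue inhibitors of metalloproteinases (Timp) were followed here across 12 RNA-seq libraries of the mouse. Members were taken by symbol alone, and 43 of the 22317 symbols of the count table carry such a name: 16 Mmp, 18 Adamts, 5 Adamtsl and 4 Timp genes. The libraries fall into 4 groups of 3 from male BALB/c mice of 8 weeks with photothrombosis, in which a dye in the blood (Rose Bengal) is lit with a laser so that local vessels clot. SB2 and SB4 are labelled brain cortex, on day 2 and day 4 after ischemic injury in the skull. BS2 and BS6 are labelled interparietal bone, on day 2 and day 6 after ischemic injury in the brain. By the labels, all 4 groups carry an injury at the other site. Controls without injury, and tissue from the injured site, are not analysed here, and comparisons are therefore between days and between these groups. The study's methods call the 3 libraries of a group biological replicates, but the labels name no animal, so p-values measure the spread between these libraries, which may be technical.

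MMPs are zinc-dependent proteases, made as inactive proenzymes, that cut collagens and other proteins of the extracellular matrix. ADAMTS proteases are secreted relatives that cut proteoglycans or trim procollagens, ADAMTS-like proteins resemble them but lack the protease domain, and TIMPs block the active site. In bone these enzymes belong to matrix turnover by osteoblast-lineage cells, osteoclasts and marrow cells, and in the brain MMP2 and MMP9 are known for opening the blood-brain barrier after stroke.

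The labelled tissue did not match the tissue transcripts in SB2 and BS2. Levels are CPM (reads of a gene per 1000000 reads of the library, scaled with TMM factors over the 12 libraries), and total counts lay between 14126082 and 18972654. The summed CPM of 8 neuron markers was 34.3 to 64.0 in SB2 and 40.7 to 126 in BS6, against 8131 to 8564 in SB4 and 7906 to 8034 in BS2. The summed CPM of the 7 measured osteoblast and osteocyte markers was 3322 to 5295 in SB2 and 1194 to 2830.0 in BS6, and 20.2 to 25.2 in the SB4 and BS2 libraries. SB2 and BS6 thus held bone transcripts and SB4 and BS2 brain transcripts, and the day comparisons within a label (SB4 against SB2, BS6 against BS2) set libraries with transcripts of different tissues against each other. Day and tissue transcripts cannot be told apart in them, and in these bulk libraries fewer cells of a type and less RNA per cell cannot be told apart either. BS6 replicate 2 stood apart from the other BS6 libraries, with a summed CPM of 6 neutrophil markers of 24343 (1408 and 3313 in replicates 1 and 3) and of 6 fibroblast markers of 42087 (136530 and 174862).

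Together the members took 1.13 to 1.30% of all counts in SB2, 0.596 to 0.983% in BS6 and 0.0759 to 0.0814% in SB4 and BS2. Of the 43 members, 30 were higher in all 6 SB2 and BS6 libraries than in every SB4 and BS2 library, which 34.1% of the 18068 genes tested over the 12 libraries also were. Another 6 (Adamts13, Adamts20, Adamtsl2, Mmp17, Mmp24 and Timp4) were higher in all 6 SB4 and BS2 libraries, against 34.7% of genes. The ranges of the other 7 overlapped.

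**Figure D1:**
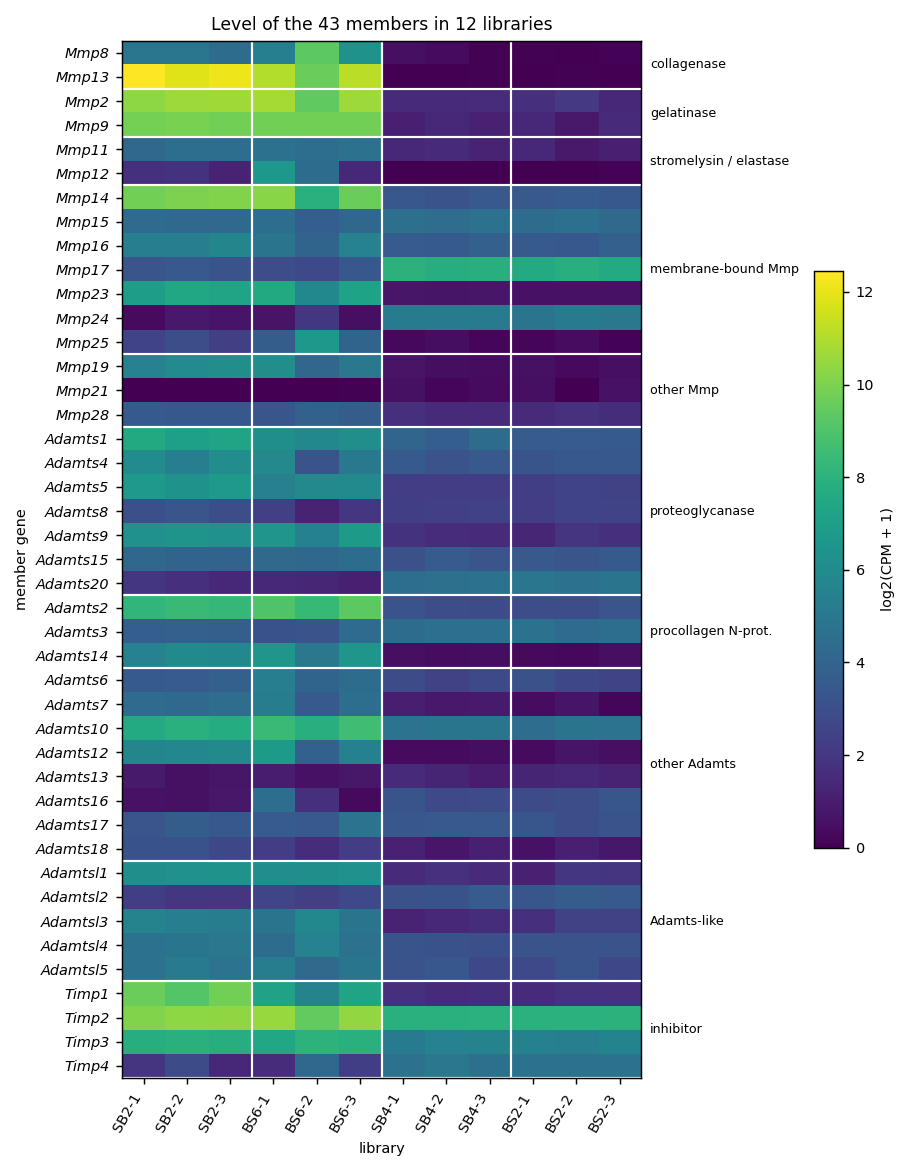
Level of each of the 43 members (rows, by role) in the 12 libraries (columns), as log2(CPM + 1) in colour. Mmp13, Mmp2, Mmp9, Mmp14 and Timp2 are bright in SB2 and BS6 and Timp1 in SB2, while Mmp17 is the brightest Mmp in SB4 and BS2.

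The promoters shown first belong to 3 Mmp genes from one stretch of chromosome 9 whose levels span the whole range, and to Timp1, whose level differed most between SB2 and BS6 among members with a call. In GENCODE M21 on mm10, Mmp13 lies at chr9:7272514-7283331, Mmp12 at chr9:7344381-7369499 and Mmp8 at chr9:7558456-7568485, all protein-coding on the plus strand. The gaps between them are 61049 bases (Mmp13 to Mmp12) and 188956 bases (Mmp12 to Mmp8), and other Mmp genes of the annotation, not analysed here, lie between Mmp12 and Mmp8. Timp1 lies at chrX:20870166-20874735 on the plus strand. RefSeq starts on GRCm38.p6 matched 29 of the 43 members, with 31 start windows. The 250 bases before the start were searched on both strands for TGANTCA, the AP-1 motif, and TGTGGT, the RUNX motif, which do not overlap in any sequence below. Capitals mark a match, and TGTGGT on the minus strand reads ACCACA.
Mmp13, chr9:7272264-7272513, plus strand: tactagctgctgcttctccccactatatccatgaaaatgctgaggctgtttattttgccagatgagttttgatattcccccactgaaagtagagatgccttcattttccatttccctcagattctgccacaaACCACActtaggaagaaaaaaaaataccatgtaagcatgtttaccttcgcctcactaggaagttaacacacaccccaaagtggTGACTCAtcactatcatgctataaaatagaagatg
Mmp12, chr9:7344147-7344396, plus strand: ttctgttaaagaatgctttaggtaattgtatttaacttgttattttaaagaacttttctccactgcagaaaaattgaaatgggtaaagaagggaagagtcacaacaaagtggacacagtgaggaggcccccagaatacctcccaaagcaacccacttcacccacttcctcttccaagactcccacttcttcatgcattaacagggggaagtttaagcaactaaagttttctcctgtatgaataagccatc
Mmp12 second start, chr9:7347124-7347373, plus strand: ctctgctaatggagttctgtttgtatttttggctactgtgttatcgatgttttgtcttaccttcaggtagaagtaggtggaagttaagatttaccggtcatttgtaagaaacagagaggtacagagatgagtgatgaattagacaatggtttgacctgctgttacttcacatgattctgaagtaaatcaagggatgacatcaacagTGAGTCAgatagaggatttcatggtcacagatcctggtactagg
Mmp8, chr9:7558179-7558428, plus strand: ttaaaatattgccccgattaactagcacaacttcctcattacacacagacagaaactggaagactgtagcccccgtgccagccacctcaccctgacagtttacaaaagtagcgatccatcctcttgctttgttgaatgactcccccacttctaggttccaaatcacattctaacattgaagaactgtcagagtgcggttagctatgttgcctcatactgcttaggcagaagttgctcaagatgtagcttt
Timp1, chrX:20869916-20870165, plus strand: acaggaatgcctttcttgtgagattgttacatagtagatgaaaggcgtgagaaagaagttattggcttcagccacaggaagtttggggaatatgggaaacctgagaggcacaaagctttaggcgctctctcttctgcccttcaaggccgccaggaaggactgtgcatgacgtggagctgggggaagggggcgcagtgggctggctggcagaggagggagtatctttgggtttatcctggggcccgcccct
The Mmp13 window held TGACTCA from base 35 to base 29 before the start and ACCACA from base 118 to base 113. The second Mmp12 start had TGAGTCA from base 44 to base 38, and the other 3 windows shown held neither motif. TGANTCA was in 6.75% of all 32851 windows of this length and TGTGGT in 14%. Among the members, TGANTCA was in windows of Mmp12 and Mmp13, and TGTGGT in windows of Mmp13, Mmp14 and Mmp23. These matches are letters in a window and say nothing of binding.

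Both collagenases were higher in all SB2 and BS6 libraries than in the SB4 and BS2 libraries. Mmp13, which cuts fibrillar collagen in bone and cartilage, had 5606, 3619 and 4536 CPM in the SB2 libraries and 2104, 804 and 2261 CPM in the BS6 libraries. In SB4 and BS2 it had 0 counts in 4 libraries and a single count in one library of each group (0.056 CPM in SB4 replicate 3, 0.064 CPM in BS2 replicate 2). The 3 SB2 libraries were all above the 3 BS6 libraries. From the pooled counts the ratio was 233986 for SB2 over SB4 (95% exact interval 41995 to 9241991) and 78950 for BS6 over BS2 (14170 to 3118399), intervals that cover counting error only. Mmp8, the neutrophil collagenase, had 28.9, 29.1 and 20.3 CPM in SB2 and 40.2, 636 and 82.0 CPM in BS6, with at most 0.426 CPM in any SB4 or BS2 library. The high BS6 library is replicate 2, the one with the high neutrophil marker sum.

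Mmp12, the macrophage elastase, was low in SB2 (2.16, 2.60 and 1.34 CPM) and uneven in BS6 (97.5, 20.2 and 1.65 CPM). The BS6 libraries ran from within the SB2 range to far above it. It had no count in any SB4 library, which allows up to 3 counts per library, so its SB2 mean was at least 11.2-fold higher. Mmp11, or stromelysin 3, lay between 17.5 and 24.7 CPM in SB2 and BS6 and between 0.832 and 1.90 CPM in SB4 and BS2. Its exons overlap those of Chchd10 on the opposite strand, and since the use of strand in the counting was not stated, reads of such a pair cannot be assigned with certainty.

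Both gelatinases, which cut denatured and basement membrane collagen, were among the 4 Mmp genes with the most transcripts per kilobase of exon in SB2 and in BS6. Mmp9 had 919.6, 978 and 879 CPM in SB2 and 884, 898 and 899 CPM in BS6, but 0.832 to 1.82 CPM in SB4 and BS2. It varied least within BS6 among the abundant Mmp genes, with 894 ± 8.10 CPM (SD, n = 3), while neutrophil and osteoclast marker sums of the same libraries spread from 1408 to 24343 and from 626 to 2457 CPM. Mmp2 had 1303, 1560.0 and 1639.9 CPM in SB2, 1753, 689 and 1594 CPM in BS6, and 1.74 to 3.14 CPM in SB4 and BS2. BS6 replicate 2 was the low library for Mmp2.

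The membrane-bound Mmp genes split into 2 patterns, apart from Mmp15, which followed neither. Mmp14 (MT1-MMP), which activates pro-MMP2 at the cell surface, had 903, 1036 and 1107 CPM in SB2 and 1191, 239.7 and 812 CPM in BS6, against 7.99 to 11.1 CPM in SB4 and BS2. Mmp23 had 148 ± 23.8 CPM in SB2, 131 ± 68.8 in BS6, 0.677 ± 0.0294 in SB4 and 0.517 ± 0.0120 in BS2 (SD, n = 3). Mmp16 (MT3-MMP) differed less, with 38.6 to 52.3 CPM in SB2, 15.3 to 44.5 in BS6 and 9.86 to 13.1 in SB4 and BS2. Mmp17 (MT4-MMP), held in the membrane by a glycolipid anchor, ran the other way, with 252, 218 and 234 CPM in SB4 and 195, 231 and 193 CPM in BS2 but 8.77, 10.1 and 8.12 CPM in SB2 and 6.78, 5.74 and 9.67 CPM in BS6. Mmp24 (MT5-MMP), known from neurons, had 26.9 to 33.6 CPM in SB4 and BS2 and 0.285 to 3.02 CPM in SB2 and BS6, and its exons overlap those of BC029722 on the opposite strand. For both genes every SB4 and BS2 library was above every SB2 and BS6 library. Mmp15 (MT2-MMP) was near level, with 18.4 ± 0.606 CPM in SB2, 17.0 ± 4.82 in BS6, 22.8 ± 1.53 in SB4 and 20.8 ± 2.20 in BS2 (SD, n = 3).

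Mmp25 (MT6-MMP), a membrane-bound enzyme of leukocytes, had 4.61, 6.93 and 4.09 CPM in SB2 and 11.8, 99.96 and 14.9 CPM in BS6. As for Mmp8, the highest BS6 library was replicate 2, and the 3 libraries of BS6 were all above those of SB2. The remaining Mmp genes were Mmp19, with 59.1 ± 13.0 CPM in SB2 and 38.6 ± 27.7 in BS6 but 0.256 to 0.568 CPM in SB4 and BS2, and Mmp28 (epilysin), with 9.97 ± 0.446 and 11.7 ± 2.33 CPM against 1.83 to 2.43 CPM (SD, n = 3). Exons of Mmp19 overlap Tmem198b and those of Mmp28 overlap 1700020L24Rik, both on the opposite strand. Mmp21 had at most 0.508 CPM in any library.

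**Figure D2:**
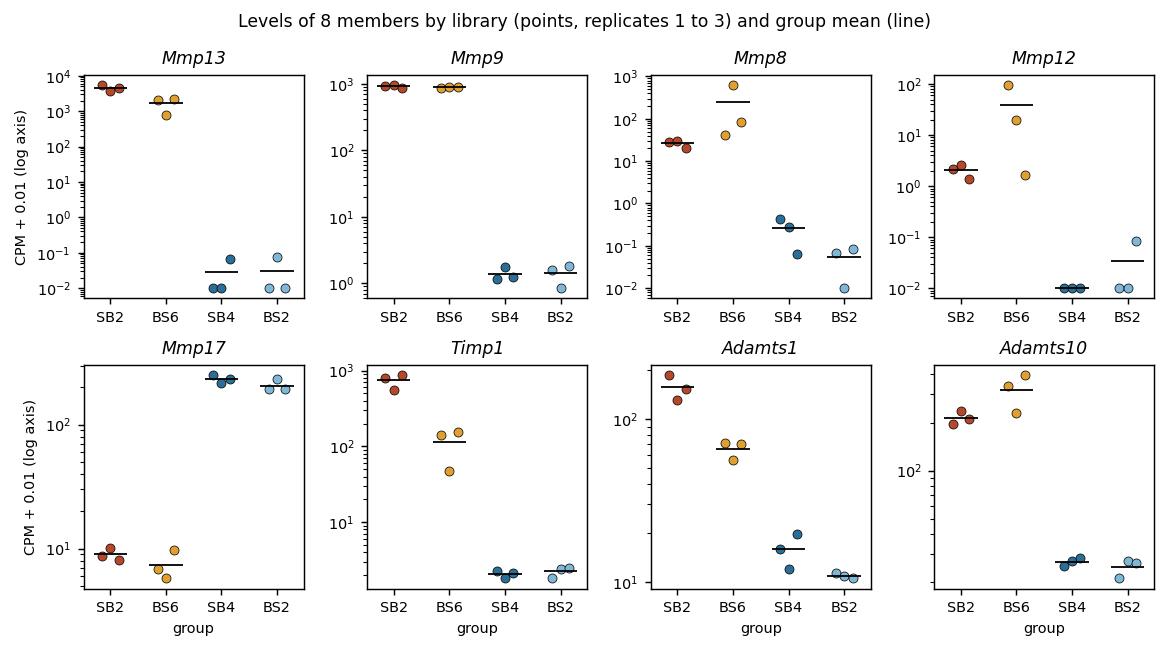
CPM + 0.01 (log axis) of 8 members in each library (points) with the group mean (line), for SB2, BS6, SB4 and BS2. Mmp9 lies at 879 to 978 CPM in all 6 SB2 and BS6 libraries, Mmp8 and Mmp12 scatter within BS6, and Timp1 and Adamts1 are the members with SB2 above BS6 at an adjusted p under 0.05 and over 1 on the log2 scale.

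Among the proteoglycan-cleaving Adamts genes, Adamts1 had 187, 131 and 153 CPM in SB2, 71.4, 55.9 and 70.0 CPM in BS6, 16.0, 12.01 and 19.8 CPM in SB4 and 11.4, 10.8 and 10.5 CPM in BS2. Adamts5, an aggrecanase and the neighbour of Adamts1 on chromosome 16, had 106, 84.6 and 101 CPM in SB2, 42.1, 56.4 and 58.5 CPM in BS6 and 3.79 to 4.67 CPM in SB4 and BS2. For both genes the 4 groups followed each other without overlap from SB2 to BS6 and then to the other 2 groups. Adamts9 (80.5 ± 3.68 CPM in SB2, 81.1 ± 33.9 in BS6) and Adamts4, the other main aggrecanase (56.1 ± 15.1 and 32.4 ± 24.6), were also well above their SB4 means of 2.13 ± 0.364 and 9.62 ± 1.32 CPM (SD, n = 3). Adamts4 was at 8.09 CPM in BS6 replicate 2, which lies below all 3 BS2 libraries. Adamts20 ran the other way, with 21.9 to 29.0 CPM in SB4 and BS2 and 1.15 to 2.96 CPM in SB2 and BS6. Adamts15 was higher in all SB2 and BS6 libraries by a smaller margin, with 14.5 to 20.2 CPM in SB2 and BS6 and 7.52 to 11.2 CPM in SB4 and BS2.

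Of the procollagen N-proteinases, which trim the amino end of fibrillar procollagens, Adamts2 and Adamts14 were higher in SB2 and BS6 and Adamts3 was not. Adamts2 had 289, 338 and 308 CPM in SB2 and 523, 328 and 643 CPM in BS6, but 6.35 to 8.86 CPM in SB4 and BS2. Adamts14 had 45.1, 61.1 and 55.3 CPM in SB2, 91.8, 30.7 and 89.0 CPM in BS6, and at most 0.436 CPM elsewhere. Adamts3, in contrast, had 19.3 to 24.5 CPM in SB4 and BS2 against 7.82 to 19.5 CPM in SB2 and BS6, with an overlap. Type I collagen transcripts took the same sides, with Col1a1 at 34656 ± 1754 CPM in SB2 and 49569 ± 29556 in BS6 and at 3.18 ± 0.748 in SB4 and 7.32 ± 2.99 in BS2 (SD, n = 3).

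Of the other Adamts genes, Adamts10, which binds fibrillin, had 195, 236 and 211 CPM in SB2, 337, 229 and 397 CPM in BS6 and 21.1 to 28.1 CPM in SB4 and BS2. Adamts12 and Adamts7, which both cut cartilage oligomeric matrix protein, had SB2 means of 56.1 ± 5.50 and 19.6 ± 1.44 CPM and BS6 means of 56.1 ± 49.8 and 23.1 ± 13.4 CPM, with at most 1.06 CPM in SB4 and BS2 (SD, n = 3). Exons of Adamts7 overlap those of Tbc1d2b on the opposite strand, which averaged 216 CPM in SB2, 197 in BS6, 22.6 in SB4 and 20.8 in BS2, and the part of this overlap in the Adamts7 counts was not tested. Adamts6 had 10.4 to 13.1 CPM in SB2 and 15.3 to 39.4 CPM in BS6, without overlap, and Adamts17 had 26.2 CPM in BS6 replicate 3 but 6.92 to 11.7 CPM in the other 11 libraries.

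The ADAMTS-like proteins bind matrix without cutting it, and 4 of the 5 were higher in SB2 and BS6. Adamtsl1 had 66.7 to 84.4 CPM there and 1.24 to 2.95 CPM in SB4 and BS2, and Adamtsl3 had 26.7 to 54.7 CPM and 1.28 to 4.43 CPM. Adamtsl4 (20.3 to 45.5 against 7.35 to 8.37 CPM) and Adamtsl5 (18.9 to 36.8 against 5.46 to 9.57 CPM) differed less. Adamtsl2 was higher in SB4 and BS2 (7.38 to 11.6 CPM) than in SB2 and BS6 (2.87 to 5.66 CPM). Adamts8, Adamts13, Adamts16 and Adamts18, like Mmp21, stayed under a mean of 10 CPM in every group, and those of them given with values below are named after their values were seen.

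The Timp genes differed between the groups in their proportions. Timp1, an inducible inhibitor, had 802, 553 and 879.9 CPM in SB2, 142, 47.2 and 156 CPM in BS6, 2.27, 1.79 and 2.12 CPM in SB4 and 1.83, 2.37 and 2.47 CPM in BS2. All 3 SB2 libraries were above all 3 BS6 libraries, which were above the other 6. Timp2, which also takes part in the activation of pro-MMP2, had 1084, 1299 and 1320.4 CPM in SB2, 1478, 712 and 1373 CPM in BS6 and 239 to 253 CPM in SB4 and BS2. Timp3, which is bound to the matrix and also inhibits aggrecanases, had 214 to 235 CPM in SB2, 173 to 261 in BS6 and 35.3 to 47.9 in SB4 and BS2. Timp4 was the Timp gene with higher levels in SB4 and BS2, at 23.2 to 30.5 CPM against 1.71 to 16.7 CPM in SB2 and BS6. Timp1, Timp3 and Timp4 each lie inside a synapsin gene on the opposite strand, Timp1 inside Syn1 with no shared exon, and Timp3 inside Syn3 and Timp4 inside Syn2 with overlapping exons. Syn2 averaged 387 CPM in SB4 and 392 in BS2 and 2.95 and 5.92 in SB2 and BS6, so it was higher in the same groups as Timp4, and the part of such overlap in the Timp4 counts was not tested.

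Per kilobase of exon, Timp1 made up 74.8, 63.2 and 73.1% of all Timp transcripts in the SB2 libraries and 28.5, 19.6 and 31.5% in the BS6 libraries. Timp2 was the leading Timp gene in BS6 (63.1 to 67.7%) and in SB4 and BS2 (82.9 to 84.7%). Mmp13 was the leading Mmp gene per kilobase in every SB2 library (56.7 to 70.1%) and every BS6 library (26.7 to 46.0%). By group means Mmp2, Mmp9 and Mmp14 followed in both groups, an order that BS6 replicate 2 with its high Mmp8 did not share, and Mmp17 led in SB4 and BS2 (65.1 to 69.0%). The summed Mmp level was 2.02 to 2.48 times the summed Timp level in SB2, 3.30 to 4.17 times in BS6 and 0.578 to 0.755 times in SB4 and BS2, all as CPM per kilobase. The SB2 and BS6 ranges of this ratio did not overlap, which was not tested.

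**Figure D3:**
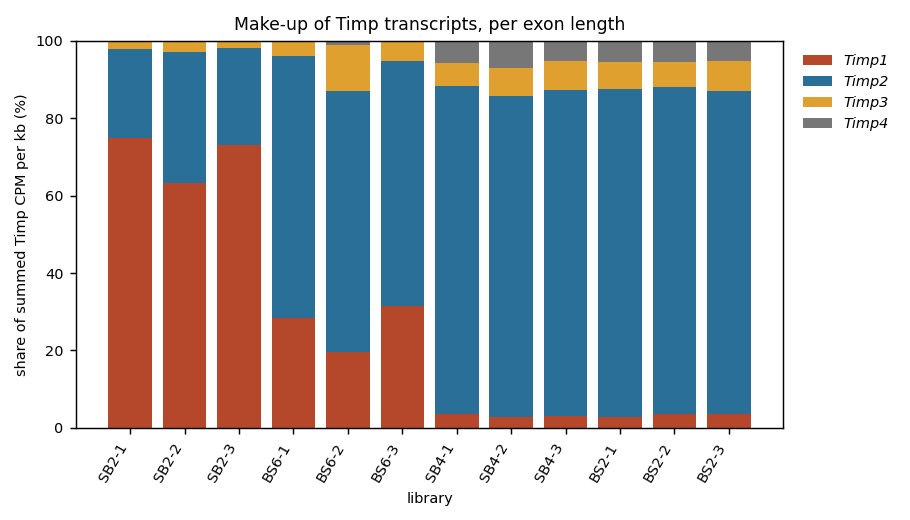
Share of each Timp gene in the summed Timp level (CPM per kilobase of exon, percent) in the 12 libraries, as stacked bars from 0 to 100. Timp1 takes 63.2 to 74.8% in SB2 and 19.6 to 31.5% in BS6, and Timp2 takes 82.9 to 84.7% in SB4 and BS2.

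SB4 was compared with SB2, and BS6 with BS2, to ask how the members differ between the days within each label. SB4 had lower levels of most members than SB2, and BS6 had higher levels of most members than BS2, and the gelatinases lay far apart in both: the mean CPM of Mmp2 and Mmp9 was 798-fold and 677-fold higher in SB2 than in SB4, and 572-fold and 632-fold higher in BS6 than in BS2. A member was called at an adjusted p under 0.05 (edgeR's quasi-likelihood test, Benjamini-Hochberg adjustment over all genes tested) with a log2 fold change over 1 in either direction. In SB4 against SB2, 42 members were tested and 7 were called higher (27.8% of all 17293 genes tested) and 30 lower (28.6%). The median log2 fold change was -2.89 for the members and -0.01 for all genes. In BS6 against BS2, 31 of 42 tested members were called higher (29.0% of 17311 genes) and 4 lower (26.5%), with a median of 2.56 for the members and 0.02 for all genes. The 7 called higher in SB4 were Mmp17 (log2 fold change 4.71, SE 0.10, adjusted p = 4.69e-12), Mmp24, Adamts20, Adamtsl2, Timp4, Adamts13 and Adamts16. The 4 called lower in BS6 were Mmp17 (-4.77, SE 0.22), Mmp24, Adamts20 and Adamtsl2.

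By role, both collagenases, both gelatinases and both genes of the stromelysin and elastase group were called lower in SB4 than in SB2 and higher in BS6 than in BS2. Mmp2 fell by 9.63 on the log2 scale in SB4 (SE 0.15, adjusted p = 1.02e-12) and Mmp9 by 9.37 (SE 0.14, adjusted p = 1.02e-12). In BS6 against BS2 the log2 fold changes of Mmp2 and Mmp9 were 9.18 (SE 0.54, adjusted p = 1.99e-05) and 9.34 (SE 0.33, adjusted p = 4.18e-06). Of the 7 membrane-bound Mmp genes, 4 were called lower and 2 higher in SB4, and the same 2, Mmp17 and Mmp24, were the 2 called lower in BS6. Of the 7 proteoglycan-cleaving Adamts genes 4 were called lower and 1 higher in SB4, and of the 5 Adamts-like genes 4 lower and 1 higher. In BS6 against BS2, 4 genes were called higher and 1 lower in each of these roles. Over all genes, 28.6% were called lower and 27.8% higher in SB4 against SB2. In BS6 against BS2, 29.0% were called higher and 26.5% lower. Timp1 fell by 8.50 in SB4 (SE 0.25, adjusted p = 1.18e-08) and had a log2 fold change of 5.73 in BS6 against BS2 (SE 0.53, adjusted p = 0.000123). Over both comparisons, which share no library, 30 members were called lower in SB4 and higher in BS6 (25.2% of the 16953 genes tested in both), 4 the other way round (4072 of these genes), 3 in SB4 against SB2 alone (Adamts13, Adamts16 and Timp4), 1 in BS6 against BS2 alone (Adamts17) and 4 (Adamts3, Adamts8, Adamts15 and Mmp15) in neither.

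Some calls changed when one library was left out or with another setting. Among the fits of BS6 against BS2 without one library, Adamts17 (1.02, adjusted p = 0.0497) kept its call only without BS6 replicate 1 or 2 (0.47 without BS6 replicate 3, and adjusted p = 0.0957, 0.146 and 0.119 without BS2 replicates 1, 2 and 3), and Adamts4 (1.83, adjusted p = 0.0364) only without BS6 replicate 2 (adjusted p = 0.0687 to 0.107 in the other 5). Mmp16 (1.41) was lost without BS6 replicate 3 (0.97) or BS2 replicate 1 or 2 (adjusted p = 0.0531 and 0.0558), and Adamtsl2 (-1.01) without BS6 replicate 2 (-0.88) or BS2 replicate 2 (-0.93). Adamts17 was also lost with RLE factors or no filter (adjusted p = 0.0523 each), total counts only (0.99) and the replicate block (adjusted p = 0.0559), Adamts4 with the block (adjusted p = 0.0873) and Adamtsl2 with upper-quartile factors (-0.93). Timp4 (-1.63, adjusted p = 0.0807) was called without BS6 replicate 2 (-3.00, adjusted p = 4.28e-06), by DESeq2 (-1.66, adjusted p = 0.033), in one fit over all 12 libraries (adjusted p = 0.0343) and with the replicate block (-2.14, adjusted p = 0.0375). Calls were gained in Adamts3 without BS6 replicate 3 (-1.40), in Adamts15 without BS6 replicate 2 (adjusted p = 9.97e-05) or BS2 replicate 3 (adjusted p = 0.00341) and with upper-quartile factors (adjusted p = 0.000466), and in Adamts8 (-1.03) and Adamts13 (-1.11) without BS6 replicate 1. Adamts16 turned its direction, from 0.13 with all libraries (adjusted p = 0.927) to -2.51 without BS6 replicate 1 (adjusted p = 0.0264), the library with 21.4 CPM against 2.23 and 0.255 in the other BS6 libraries. In SB4 against SB2, Adamts6 (-1.05) was lost without SB2 replicate 3 (-0.95) or SB4 replicate 2 (-0.88), and Adamts13 (1.08) without SB2 replicate 2 (0.89) or SB4 replicate 1 (0.86), by DESeq2 (adjusted p = 0.0569), with upper-quartile factors (0.96) and with total counts only (0.99).

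SB2 and BS6 were then set against each other, since both hold bone transcripts. By their labels they differ in tissue, injury site and day at once, which cannot be told apart. Since the transcripts of both day 2 groups went against the labelled tissue, these data cannot tell whether the labelled injury site of SB2 holds, and so whether injury site differs here at all or only day. The groups share their libraries with the comparisons above. Timp1 and Adamts1 were called higher in SB2, 2 of 41 tested members (0.741% of 16329 genes were called higher), and no member was called lower (1.11% of genes). Timp1 had a log2 fold change of 2.68 (SE 0.47, adjusted p = 0.0375) and Adamts1 of 1.24 (SE 0.17, adjusted p = 0.0304), with all 3 SB2 libraries above all 3 BS6 libraries for each. Both calls were lost without any one of SB2 replicates 1, 2 and 3 or BS6 replicates 1 and 3 (adjusted p up to 0.182 and 0.181) and with the replicate block (adjusted p = 0.0995 for each), while the fold changes with one library left out stayed at 2.31 to 2.97 and 1.10 to 1.36. Without BS6 replicate 2 the adjusted p was 0.00214 for Timp1 and 0.00401 for Adamts1, and 6 members were called, with Mmp13 (1.06), Adamts8 (1.12), Adamts6 (-1.38) and Mmp25 (-1.37) as the others, while 1.63% of all genes were called higher and 2.39% lower. Adamts5 passed the adjusted p alone (0.87, SE 0.16, adjusted p = 0.0396), but in 1 of 6 fits without one library, that without BS6 replicate 2 (adjusted p up to 0.184 in the others), and not with the replicate block (adjusted p = 0.113). The osteoblast and osteocyte marker sum was also higher in SB2 (4827, 3322 and 5295 CPM) than in BS6 (1714, 1194 and 2830.0), and its part in these differences was not tested. Most of the SB2 sum was Ibsp (3542, 2115 and 3987 CPM, against 804, 491 and 1325 in BS6). Phex was higher in BS6 (40.8 to 90.4 CPM, against 28.1 to 34.6), and Sp7, Runx2, Dmp1, Alpl and Sost overlapped.

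At an unadjusted p under 0.05 there were 15 of 41 members, against 29.2% of all genes, and the 3 libraries of SB2 did not overlap those of BS6 in 12 of 41 members, or 29.3%, against 38.1% of all genes. Mmp13 was 1.40 higher in SB2 on the log2 scale (SE 0.42, adjusted p = 0.0939), with no overlap. The values furthest in the other direction were those of Mmp12 (-4.30, SE 1.34, adjusted p = 0.102), Adamts16 (-3.79, SE 1.45, adjusted p = 0.148), Mmp8 (-3.30, SE 1.05, adjusted p = 0.107) and Mmp25 (-3.05, SE 0.91, adjusted p = 0.0953), all members with 1 BS6 library far above the others. Without that library they were -2.45 (Mmp12) and -1.15 (Adamts16), both without BS6 replicate 1, and -1.24 (Mmp8) and -1.37 (Mmp25), both without BS6 replicate 2. Mmp2, Mmp9, Timp2 and Timp3 had differences of 0.14 (SE 0.35), 0.03 (SE 0.13), 0.04 (SE 0.29) and -0.03 (SE 0.17), none past the threshold. The median over the 41 members was -0.01, and that of all genes -0.02. DESeq2 and one fit over all 12 libraries each called the same 10 members, 5 higher in SB2 (Timp1, Adamts1, Mmp13, Adamts8 and Adamts18) and 5 lower (Mmp12, Mmp8, Mmp25, Adamts16 and Adamts6). Over all genes DESeq2 called 1.93% higher and 4.54% lower, and the fit over 12 libraries 1.80% and 5.24%.

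**Figure D4:**
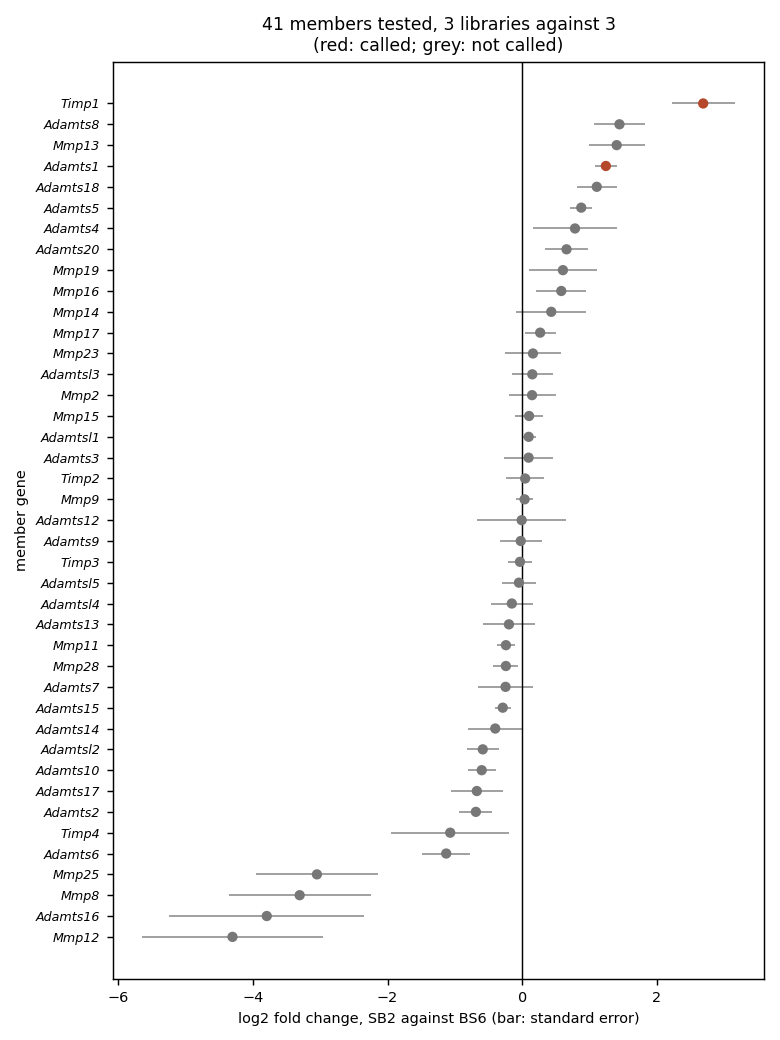
Log2 fold change of SB2 against BS6 (points, with the standard error as bar) of the 41 members tested, 3 libraries against 3, with called members in red. Timp1 (2.68) and Adamts1 (1.24) are called, and the longest bars belong to Mmp12, Adamts16, Mmp8 and Mmp25 on the left.

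The BS6 libraries differed among themselves in members and in cell markers. BS6 replicate 2 was below both other BS6 libraries in 27 of the 43 members (41.2% of genes tested in SB2 against BS6) and above both in 8 (41.3% of genes), namely Mmp8, Mmp24, Mmp25, Mmp28, Adamtsl3, Adamtsl4, Timp3 and Timp4. Mmp8 was 10.4 times and Mmp25 7.49 times the mean of the other 2 libraries there, beside the 6 neutrophil markers, none of which was at 0 in all libraries of a group, at 24343 CPM. Over the 6 SB2 and BS6 libraries the neutrophil sums were 1161, 1516, 848, 1408, 24343 and 3313 CPM for SB2 replicates 1 to 3 and BS6 replicates 1 to 3, and Mmp8 was highest in the 2 libraries with the highest sums. In the same library Mmp14 was 0.239 times, Mmp13 0.368 times, Timp1 0.317 times and Mmp2 0.412 times the mean of the other 2, beside an osteoclast marker sum of 626 CPM (1962 and 2457 in the others, 1918 to 2110.3 in SB2) and the low fibroblast sum. Of the brain markers, the oligodendrocyte sum was 300 CPM in BS6 replicate 2 (135 and 123 in replicates 1 and 3). The neuron sum was 126 CPM there (40.7 and 51.2). The astrocyte sum was lowest there (437 CPM, against 533 and 705), with Gja1 at 176 CPM (448 and 661). The other astrocyte markers, Gfap, Aqp4, Slc1a2, Slc1a3 and Aldoc, were all highest there, with Aldoc at 96.8 CPM (10.4 and 6.43). The skeletal muscle sum also differed, with 1355, 1562 and 196 CPM in SB2 and 50.9, 44.5 and 330.1 in BS6. The erythroid sum was lower in SB2 (1242, 4510.4 and 1410.3 CPM) than in BS6 (8161, 12184 and 7546), without overlap. The chondrocyte sum (118 to 125 CPM in SB2, 42.2 to 104.5 in BS6) and the astrocyte sum (743 to 858 and 437 to 705) were higher in SB2, also without overlap. Most of the SB2 chondrocyte sum was Acan (95.8 to 98.5 CPM, against 13.8 to 49.3 in BS6). Col2a1 was higher in BS6 (19.6 to 46.4 CPM, against 5.92 to 8.86), and the other chondrocyte markers overlapped. Most of the SB2 astrocyte sum was Gja1 (635 to 794 CPM, against 176 to 661 in BS6), and each astrocyte marker taken alone overlapped. The part of these markers in the members' levels was not tested, and without BS6 replicate 2 the log2 difference of SB2 against BS6 was 2.31 for Timp1 and 1.14 for Adamts1, both still called. The coefficient of variation was higher in BS6 than in SB2 in 34 of 41 members, against 73.2% of all genes.

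**Figure D5:**
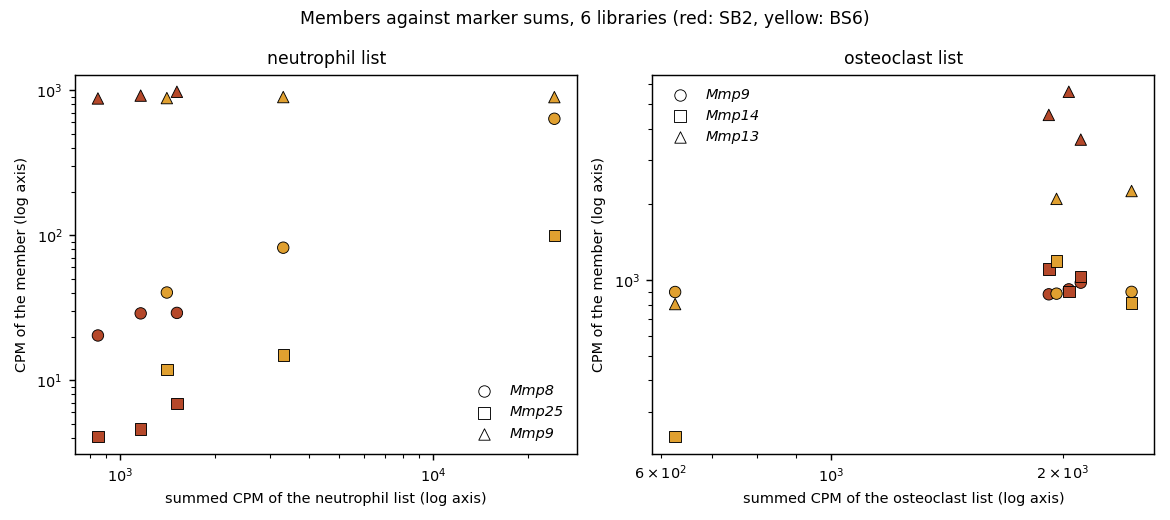
CPM of Mmp8, Mmp25 and Mmp9 against the summed CPM of 6 neutrophil markers (left), and of Mmp9, Mmp14 and Mmp13 against that of 6 osteoclast markers (right), in the 3 SB2 (red) and 3 BS6 (yellow) libraries, all axes log. Mmp8 and Mmp25 are highest at 24343 CPM of neutrophil markers, where Mmp9 stays at 898 CPM, and Mmp14 is lowest at 626 CPM of osteoclast markers.

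SB4 and BS2, the groups with brain transcripts, had close levels in most members, and the same doubt about the labels of day 2 holds for BS2. Of 35 members tested 0 were called by edgeR's quasi-likelihood test in either direction, against 0.147% of 16278 genes. DESeq2 also called 0 members, against 0.277% of 16616 genes. At an unadjusted p under 0.05 there were 6 of 35 members, against 11.9% of genes. The value nearest a call was Adamtsl3, with 1.28, 1.63 and 2.06 CPM in SB4 and 2.24, 4.23 and 4.43 CPM in BS2 (log2 fold change -1.12, SE 0.28, adjusted p = 0.0614). It was called without SB4 replicate 3 (-1.30, adjusted p = 0.0393) and without BS2 replicate 1 (-1.38, adjusted p = 0.00782), and also with no filter (-1.11, adjusted p = 0.0188) and with the replicate block (-1.14, adjusted p = 0.0216). Adamts1 was 0.53 higher in SB4 (SE 0.16, adjusted p = 0.155) and Mmp17 0.17 higher (SE 0.07, adjusted p = 0.392). Mmp8, Mmp12, Mmp13, Mmp19, Mmp21, Mmp25, Adamts12 and Adamts14 had too few counts in these groups to be tested.

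The mean of both changes from the early to the late day, over all 12 libraries, sets SB4 and BS6 against SB2 and BS2, so that each side holds one group with bone and one with brain transcripts. It shares its libraries with all comparisons above, and the marker sums that differ between SB2 and BS6 enter it too, with a part that was not tested. Timp1 was the member called, lower at the late days by a log2 fold change of -1.39 (SE 0.30, adjusted p = 0.0208, edgeR's quasi-likelihood test), against 0.249% of the 18068 genes called lower. Timp1 was 2.68 higher in SB2 than in BS6, but SB4 against BS2 gave -0.12 (SE 0.26, adjusted p = 0.898, same test). The mean is therefore no drop seen in both pairs of groups. The call was lost without SB2 replicate 1, SB4 replicate 2, BS2 replicate 2 or BS2 replicate 3 (adjusted p = 0.0512 to 0.0572), and Adamts16 was called too without BS6 replicate 3 (higher at the late days, adjusted p = 0.0298). Adamts5 (-0.52, SE 0.10, adjusted p = 0.0152) and Adamts8 (-0.76, SE 0.21, adjusted p = 0.0489) also passed the adjusted p alone, so 3 of 42 members did, against 8.58% of genes. Adamts5 passed in all 12 fits without one library, but Adamts8 in 2 of 12, those without BS6 replicate 1 or 2 (adjusted p up to 0.11 in the others), and it did not pass with RLE factors (adjusted p = 0.0517), no filter (adjusted p = 0.0531) or the replicate block (adjusted p = 0.0762). The opposite contrast is the change in BS6 against BS2 less that in SB4 against SB2. It sets SB2 and BS6 (bone transcripts) against SB4 and BS2 (brain transcripts), so days and tissue transcripts cannot be told apart in it. It passed the adjusted p in 40 of 42 members, against 84.9% of genes, and Adamts8 and Mmp15 were the 2 that did not pass.

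Other genes of the same system took the same sides, from lists chosen for their known function. Of 20 activators, inhibitors, cofactors and clearance receptors, 17 were called lower in SB4 than in SB2 (28.6% of all genes) and 0 higher (27.8%), and 17 were called higher in BS6 than in BS2 (29.0%) and 0 lower (26.5%). Their medians were -2.34 and 2.01, against -0.01 and 0.02 over all genes. Furin, a convertase that activates MT-MMPs, had 131 ± 5.43 CPM in SB2, 143 ± 3.06 in BS6, 28.1 ± 1.48 in SB4 and 25.4 ± 0.454 in BS2 (SD, n = 3). In SB2 against BS6 only Serpine2, a protease inhibitor, was called of the 20 (1.11, adjusted p = 0.0484, against 0.741% of all genes called higher), and in SB4 against BS2 none of the 19 tested. Of 16 matrix substrates 12 were called lower in SB4 and 3 higher (Bcan, Ncan and Reln, all of brain matrix), and 12 higher and the same 3 lower in BS6 against BS2, beside the same shares of all genes. Col2a1 (-2.16, adjusted p = 0.0327) and Thbs1 (-1.52, adjusted p = 0.0486) were the 2 called in SB2 against BS6, both lower in SB2 (1.11% of all genes). With the replicate block, which called 0 of 16329 genes, these 2 calls and that of Serpine2 were lost. Acan, the aggrecan that Adamts1, Adamts4 and Adamts5 cut, had 97.2 ± 1.37 CPM in SB2 and 31.9 ± 17.8 in BS6 (1.59, adjusted p = 0.0733).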

How the data were processed

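Poly(A) RNA of 12 mouse libraries was sequenced as read pairs, and the 4 groups of 3 were taken from the labels. Per the study's methods, reads were trimmed with fastp and aligned to mm10 by HISAT2 2.1.0, and the authors deposited raw counts per gene symbol. The counting program, annotation, use of strand and whether the counts precede the ComBat_seq step are not given in the sources used here, so overlapping genes and close paralogs are uncertain. Columns were matched to samples by name, 0 columns belonged to other samples, and all lines name a gene. Positions are from GENCODE M21, in which all 43 members were found, and promoter sequences from RefSeq.

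edgeR 4.0.16 (R 4.3.3) tested the counts with filterByExpr (minimum count 10), TMM factors and the robust quasi-likelihood test, in fits of 2 groups of 3 libraries, or of all 12 for the contrasts. The Benjamini-Hochberg adjustment covered all genes tested. Calls needed an adjusted p below 0.05 and a log2 fold change beyond 1 in size. The scripts were tested on simulated data. Levels between genes were compared per kilobase of exon. Total counts were 14126082 to 18972654, and intervals and the limit of 3 counts cover counting error only, since reads carry no molecular identifiers. Members reaching a group mean of 10 CPM or more (38), members called in a comparison other than those between days within a label, and the Timp genes were given with values, and the rest mostly by counts. The members and lists were chosen with earlier results of these data known. Alternatives were DESeq2 1.42.0, RLE, upper-quartile and no scaling factors, no filter or a strict one, a replicate block, one fit over 12 libraries, the adjusted p alone and leaving out each library. The contrast of the difference of both changes was added after seeing the data. Some genes beside the members or in the pathway lists are not reported here by name.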

Additional observations from a re-analysis of the deposited data

Results flagged for a closer look

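The change over days differed between libraries labelled interparietal bone and libraries labelled brain cortex in 40 of 42 members tested, against 84.9% of all genes, by the contrast over 12 libraries at an adjusted p under 0.05 (edgeR's quasi-likelihood test). This contrast sets SB2 and BS6 (bone transcripts) against SB4 and BS2 (brain transcripts), so days and tissue transcripts cannot be told apart in it. Timp1 fell by 8.50 on the log2 scale in SB4 against SB2 and had 5.73 in BS6 against BS2, and the mean of both changes over days was -1.39. The mean of both changes was -0.52 in Adamts5 and -0.76 in Adamts8, each at an adjusted p under 0.05. Adamts8 kept this in 2 of 12 fits without one library and lost it with RLE factors, no filter and the replicate block (adjusted p = 0.0517, 0.0531 and 0.0762).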

How the results depend on the processing

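The members counted here had an adjusted p under 0.05, a log2 fold change beyond 1 or a call under another setting. Of their 1448 values under another setting, 1364 kept their direction and stayed called or not called, 38 gained a call and 43 lost one in the same direction, and 3 changed sign. A value among the 1364 could still cross the adjusted p alone, as Adamts5 in SB2 against BS6 did with the replicate block. Timp4 in SB2 against BS6 (-1.07) was -1.75 to 0.30 with one library left out and above 0 without BS6 replicate 2. Adamts16 in BS6 against BS2 (0.13) was -2.51 to 0.70 with one library left out, below 0 without BS6 replicate 1 (-2.51), and -1.12 with the replicate block. Leaving out one library gave 36 to 37 called members in SB4 against SB2 (37 with all), 31 to 37 in BS6 against BS2 (35), 0 to 6 in SB2 against BS6 (2), 0 to 1 in SB4 against BS2 (0) and 0 to 2 in the mean contrast (1). Among these fits the share of all genes called is given only for SB2 against BS6 without BS6 replicate 2 (1.63% higher and 2.39% lower). The other left-out counts are not set against all genes, so their shifts are no result about the members. In SB2 against BS6 the count was 10 by DESeq2 and 10 in one fit over all 12 libraries (5 higher and 5 lower in each, against 2 and 0, with 1.93 and 4.54%, and 1.80 and 5.24%, of all genes) and 0 with a replicate block, which called 0 of 16329 genes, in which the adjusted p of Timp1 and Adamts1 was 0.0995. In SB4 against BS2 it was 1, Adamtsl3, with no filter (0.225% of genes) and 1 with the replicate block (0.375%). In the mean contrast it was 4 by DESeq2 (Adamts16, Mmp25, Mmp8 and Timp1, against 2.02% of genes) and 3 by the adjusted p alone. The cause of these shifts was not tested. Libraries with the same replicate number did not deviate together (r of -0.094 to 0.062, and up to 0.173 between different numbers). These values cannot tell whether such libraries share an animal or a preparation. In the comparisons over days the block called 37 and 34 members. Upper-quartile factors moved the median of all genes by -0.13 on the log2 scale in SB4 against SB2 and called 36 members. Requiring at least 10 counts in every library left fewer members to test (32 in SB4 against SB2) and called 27 and 24. In the comparisons over days, the share of all genes called is not given for the block, upper-quartile factors or this filter. These counts are therefore no result about the members. Depth limits the members in SB4 and BS2, where Mmp13 had 1 count in each group.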
